A study of Mus musculus with 6 samples.

Results

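The genes described here belong to the interferon response and to antigen presentation by MHC class I. They were chosen as a list of 37 symbols, and each was read from the probe sets whose platform annotation names it alone, using the brightest probe set by its mean of 6 arrays. Of the 37 symbols 35 were measured in this way, among 18182 genes in all. The other 2, Isg15 and H2-T23, lie only on probe sets that name further genes and are given no value here. The list was divided by role into 8 Irf and Stat factors, 13 interferon-induced genes, 10 genes of the MHC class I pathway and 4 interferon receptor chains.

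The cells were Pax7-nGFP+ cells, sorted from limbs of Tg:Pax7-nGFP mice on a mixed C57BL/6:DBA2 background at 2 ages. One group was E17.5 (3 arrays, replicates A, B and C) and the other was E12.5 (3 arrays, replicates A, B and C). All embryos carried the transgene, in which Pax7 regulatory sequence drives nuclear GFP, so the sort followed the reporter and not Pax7 protein. Limbs were dissociated with trypsin, and GFP-negative cells were not analysed here. Total RNA was amplified from its 3' end and hybridised to single-colour Affymetrix arrays, and the values are log2 signals per probe set.

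Interferons are secreted proteins that signal through paired receptor chains. The type I interferons (alpha and beta) bind IFNAR1 with IFNAR2, and interferon gamma binds IFNGR1 with IFNGR2. The receptors activate Janus kinases and STAT proteins, which act on target genes through the interferon-stimulated response element (ISRE) and the gamma-activated site (GAS), and the IRF transcription factors bind ISRE-like DNA. MHC class I molecules show cytosolic peptides to CD8 T cells, and their supply chain of proteasome subunits, TAP transporter, loading chaperones and light chain is itself raised by interferon gamma.

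Upstream regions of 4 members are shown first, because their letters show these elements in genes that rose and in a gene that stayed in the low range. They are the 250 bases before the transcription start in RefSeq (build GRCm38.p6), written 5′ to 3′ on the gene's own strand, with ISRE letters (GAAANNGAAA on either strand) and GAS letters (TTCNNNGAA, which reads the same on both strands) in capitals. Irf1 and Irf8 hold GAS letters and were higher at E17.5, Rsad2 holds ISRE letters and was higher at E17.5, and Ifit1 holds a pair of ISRE matches and stayed under 4 on all 6 arrays. Irf1 and Irf8 each have a second window in RefSeq that is not printed.
Irf1, chr11:53769764-53770013, plus strand: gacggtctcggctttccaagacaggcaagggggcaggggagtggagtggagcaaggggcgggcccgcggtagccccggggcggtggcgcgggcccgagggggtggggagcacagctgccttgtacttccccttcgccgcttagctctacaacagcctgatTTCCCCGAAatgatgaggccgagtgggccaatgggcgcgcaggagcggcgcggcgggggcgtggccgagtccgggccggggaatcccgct
Irf8, chr8:120736108-120736357, plus strand: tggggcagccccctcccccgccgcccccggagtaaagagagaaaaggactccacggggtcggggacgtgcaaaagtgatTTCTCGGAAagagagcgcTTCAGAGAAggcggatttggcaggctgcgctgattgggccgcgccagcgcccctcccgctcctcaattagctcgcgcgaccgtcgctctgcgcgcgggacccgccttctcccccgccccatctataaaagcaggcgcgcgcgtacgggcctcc
Rsad2, chr12:26456453-26456702, minus strand: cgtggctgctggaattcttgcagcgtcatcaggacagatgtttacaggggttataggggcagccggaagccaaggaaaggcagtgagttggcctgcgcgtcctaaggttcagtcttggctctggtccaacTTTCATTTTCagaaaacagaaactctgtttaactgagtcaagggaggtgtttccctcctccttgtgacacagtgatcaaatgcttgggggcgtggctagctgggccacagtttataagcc
Ifit1, chr19:34640639-34640888, plus strand: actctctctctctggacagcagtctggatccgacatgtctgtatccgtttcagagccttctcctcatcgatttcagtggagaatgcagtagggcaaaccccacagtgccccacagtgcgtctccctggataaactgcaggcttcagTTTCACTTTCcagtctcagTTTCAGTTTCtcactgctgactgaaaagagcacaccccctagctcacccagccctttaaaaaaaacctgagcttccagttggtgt

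The GAS match of Irf1 begins 90 bases before the start, those of Irf8 begin 171 and 153 bases before it, the ISRE match of Rsad2 begins 120 bases before it, and those of Ifit1 begin 104 and 85 bases before it. Over windows of 250 bases before to 50 after the start, 33 of the 37 listed genes had an entry. ISRE letters were present for 13 of these 33 genes (39.4%), against 3.99% of the 27025 genes with an entry. GAS letters were present for 10 (30.3%), against 9.55% of all. Among the members with an entry, the ISRE letters occurred in 2 of 7 that rose, in 1 of 2 that fell and in 4 of 8 that were under 4 on all arrays. The GAS letters occurred in 3 of 7 that rose, in none of those that fell and in 1 of 8 under 4. Of the 14 members with an entry that were not called but reached 4 on some array, 6 held GAS letters and 4 held ISRE letters. A match says only that these letters are in the window.

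The sorted cells had the defining markers of their label at both ages. Pax7, the paired-box factor of muscle progenitors, was at 12.20 or above at E17.5 and at 11.75 or below at E12.5, a rise of 0.91 (adjusted p = 0.0105 in limma), and the determination gene Myod1 was at 10.69 or above on every array. E17.5 replicates A and B stood apart from the rest by their closeness: the SD of their difference was 0.152 over the 8758 genes whose mean reached 6. The 5 other pairs of one age had SDs of 0.412 to 0.551. A and B may not be independent samples, so each call was also made with their average as a single sample, named the averaged fit below. RNA of some globin genes differed with age. Of 8 erythroid markers 3 fell (1 in the averaged fit), the globin genes Hba-x, Hbb-y and Hbb-bh1. The embryonic globin gene Hbb-y was at 3.23 to 4.46 at E17.5 and at 13.02 to 14.89 at E12.5. The other 5 erythroid markers were not called, with Hba-a1, Klf1 and Gata1 under 4 on all arrays. The part of red blood cell RNA in the differences below was not tested. The precision of every value is limited by the number of arrays.

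At E17.5 a minority of the interferon and antigen presentation genes moved, and most of those that moved were higher. Differences are log2 values of E17.5 less those of E12.5. Each comes with its standard error (SE) and with the Benjamini-Hochberg adjusted p of limma over all 18182 genes, and a gene was called at an adjusted p under 0.05. Of the 35 measured members 7 rose (Irf1, Irf8, Ifi35, Ifih1, Rsad2, Tapbp and Ifngr1), 2 fell (Ifitm1 and Ifitm2) and 26 were not called. For comparison, 8.21% of all genes were called higher and 8.73% were called lower. The averaged fit called 7 members higher and 1 lower, against 5.62% and 4.54% of all genes; it dropped Ifngr1 and Ifitm2 and added Gbp2. All 3 E17.5 arrays lay above all 3 E12.5 arrays for 14 members, against 14.2% of all genes, and below them for 2 members, against 17.2% of all genes. The median difference of the 35 members was 0.16, against 0.00333 for all genes. Low signals hold little specific information in these values, and 12 of the 35 members were under 4 on all 6 arrays, a state shared by 39.3% of all genes.

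**Figure D1:**
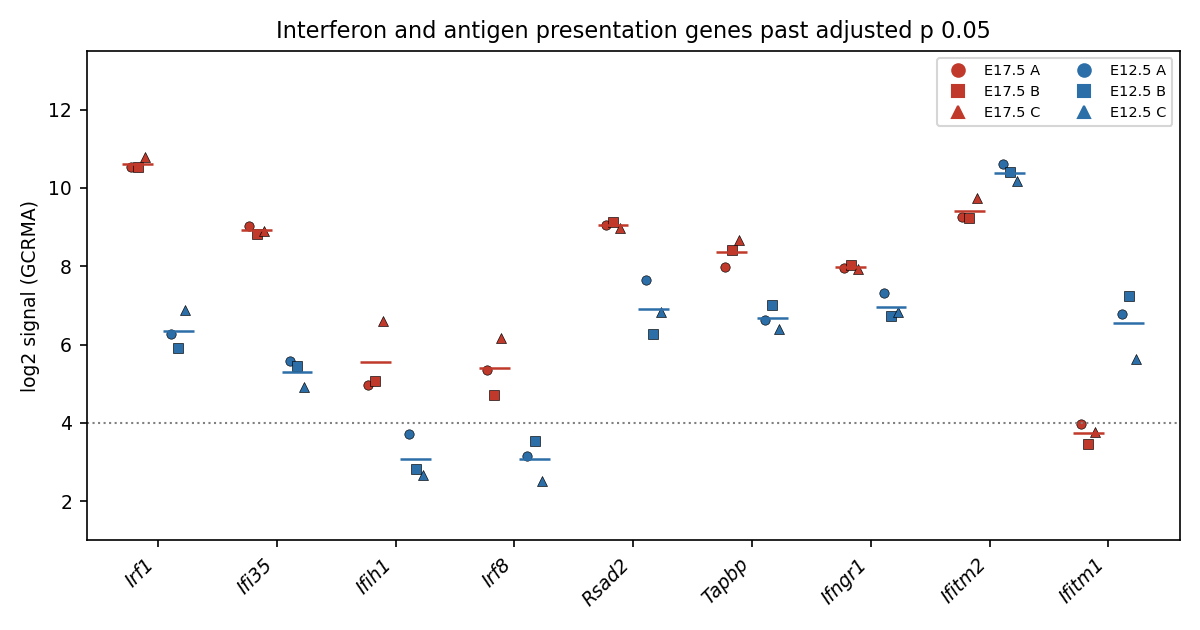
Log2 signal of the 9 called members on each array, with E17.5 in red to the left and E12.5 in blue to the right of each gene, symbols for replicates A, B and C, short lines for the means of 3 arrays, and a dotted line at 4. The ages do not overlap for any of the 9 genes, which were chosen by their call on these same arrays. Irf8 and Ifih1 were under 4 on all E12.5 arrays, and Ifitm1 was under 4 on all E17.5 arrays.

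Among the transcription factors, Irf1 and Irf8 rose, and Irf2, Irf3, Irf5, Irf7, Irf9 and Stat2 were not called. Irf1, a rapidly inducible factor that drives MHC class I and other interferon gamma targets, had log2 signals of 10.53, 10.53 and 10.80 on E17.5 arrays A, B and C, against 6.26, 5.91 and 6.87 on E12.5 arrays A, B and C. The arrays of each age were close together and the ages lay far apart. The difference was 4.27 (SE 0.26, adjusted p = 0.000158), or 19.3-fold, the largest rise of the list. In the averaged fit it was 4.32 (adjusted p = 0.00126).

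Irf8, a factor best known for the development of macrophages and dendritic cells, had 5.35, 4.70 and 6.17 at E17.5, against 3.16, 3.54 and 2.52 at E12.5. All E12.5 arrays were in the low range and the highest E17.5 value was that of replicate C. The difference was 2.33 (SE 0.43, adjusted p = 0.0118), and with every value under 4 raised to 4 it was 1.41. A second Irf8 probe set was under 4 on all arrays.

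Irf3, which is activated by viral nucleic acid sensing, had 9.35, 9.26 and 8.72 at E17.5, against 8.97, 9.61 and 9.38 at E12.5. Its ages overlapped and the difference was -0.21 (SE 0.23, adjusted p = 0.71). The other Irf3 probe sets differed by -0.01, 0.43 and -0.88, and none was called in limma over all 44994 probe sets. Irf9, the DNA-binding part of the ISGF3 complex formed downstream of type I interferon, differed by -0.07 (SE 0.29, adjusted p = 0.94) at values between 4.99 and 5.72. Its partner Stat2 and the feed-forward factor Irf7 were under 4 on every array, with a highest value of 2.84. Irf2, an antagonist of Irf1, and Irf5 differed by 0.56 and 0.32 and were not called (adjusted p = 0.119 and 0.333). Of the 8 factors 2 rose and none fell, against 8.21% and 8.73% of all genes, with a median difference of 0.21. The medians of the Irf and Stat factors, interferon-induced and class I pathway genes include members in the low range, mostly with differences near 0. These medians were higher where a limit on the mean left such members out, but that limit favours genes high at one age.

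The interferon-induced genes were divided: Ifi35, Ifih1 and Rsad2 rose, Ifitm1 and Ifitm2 fell, and 5 others of the 13 were under 4 on all arrays. That low state was shared by 39.3% of all genes. Ifi35, a leucine zipper protein that interacts with NMI, had 9.03, 8.82 and 8.89 at E17.5, against 5.57, 5.44 and 4.92 at E12.5. The difference was 3.60 (SE 0.23, adjusted p = 0.000195), or 12.2-fold. That probe set carries the _s_at suffix, which marks probes shared by several transcripts. Of the 35 chosen sets 2 end in _s_at (Ifi35 and Irf2) and 5 end in _x_at (Irf3, Gbp2, Psmb8, H2-D1 and H2-K1). The other Ifi35 probe sets moved the same way, by 3.23 on an _x_at set and by 1.38 on one without a suffix, with adjusted p of 0.00106 and 0.00218 in limma over all 44994 probe sets. In that fit 4.54% of probe sets were called higher.

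Rsad2, which encodes the antiviral enzyme viperin, had 9.04, 9.12 and 8.98 at E17.5, against 7.64, 6.26 and 6.83 at E12.5. The E17.5 arrays lay within a narrow band above all E12.5 arrays. The difference was 2.14 (SE 0.34, adjusted p = 0.0066). A second Rsad2 probe set differed by 1.51 but was not called (adjusted p = 0.0685 over all probe sets). Ifih1, the cytosolic double-stranded RNA sensor MDA5, had 4.97, 5.07 and 6.59 at E17.5, against 3.72, 2.83 and 2.68 at E12.5. Replicate C was the highest E17.5 array and the E12.5 arrays were all in the low range. The difference was 2.47 (SE 0.50, adjusted p = 0.0174), with the floor at 4 it was 1.54, and the call was lost without E12.5 replicate B (adjusted p = 0.0602) or without E12.5 replicate C (adjusted p = 0.0633).

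The Ifitm genes encode small membrane proteins that block virus entry and are also expressed in early embryos and germ cells, and they lie near each other on chromosome 7. Ifitm1 had 3.98, 3.45 and 3.77 at E17.5, against 6.78, 7.25 and 5.62 at E12.5. The E17.5 arrays were all in the low range, and Ifitm1 fell by 2.82 (SE 0.44, adjusted p = 0.00632). Ifitm2 had 9.25, 9.22 and 9.75 at E17.5, against 10.60, 10.40 and 10.17 at E12.5. It fell by 0.98 (SE 0.19, adjusted p = 0.0137), a call lost in the averaged fit (adjusted p = 0.0548) and without E17.5 replicate A (adjusted p = 0.055) or E17.5 replicate B (adjusted p = 0.0574).

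Ifitm3 had 7.28, 6.87 and 7.22 at E17.5, against 5.75, 7.40 and 5.25 at E12.5. E12.5 replicate B overlapped the E17.5 arrays, and the difference of 0.99 was not called (SE 0.54, adjusted p = 0.317). Without E12.5 replicate B it was 1.62 (adjusted p = 0.0173). That array also had the highest summed marker signal of its age for macrophage, endothelial, fibroblast and tendon, cartilage and erythroid genes, whose part in the Ifitm3 value was not tested.

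Several of the genes used most often to read an interferon response were in the low range at both ages. Ifit1 and Ifit3, which bind foreign RNA, the ISG15 protease gene Usp18 and the antiviral GTPase gene Mx1 were under 4 on all arrays. The fifth gene in that range was Gbp2, a guanylate-binding protein gene read on an _x_at set, with 2.76, 3.26 and 3.67 at E17.5, against 2.51, 2.42 and 2.51 at E12.5. It was not called (0.75, SE 0.21, adjusted p = 0.0537) but passed in the averaged fit (adjusted p = 0.0364) and without E17.5 replicate A (adjusted p = 0.00605). A Gbp2 probe set without a suffix, also under 4 on all arrays, differed by 0.13 (adjusted p = 0.442 over all probe sets). Bst2, which encodes the virion-tethering protein tetherin, was between 3.81 and 4.35 and differed by 0.14 (adjusted p = 0.749).

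Ifit2 was the exception among the Ifit genes in being well above the low range, with 8.58, 8.48 and 8.49 at E17.5, against 8.50, 7.97 and 8.35 at E12.5. Its ages overlapped and the difference was 0.24 (SE 0.17, adjusted p = 0.466). Of the 13 interferon-induced members 3 rose and 2 fell, against 8.21% and 8.73% of all genes. The other 8 were not called, and the median difference of the 13 was 0.14.

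**Figure D2:**
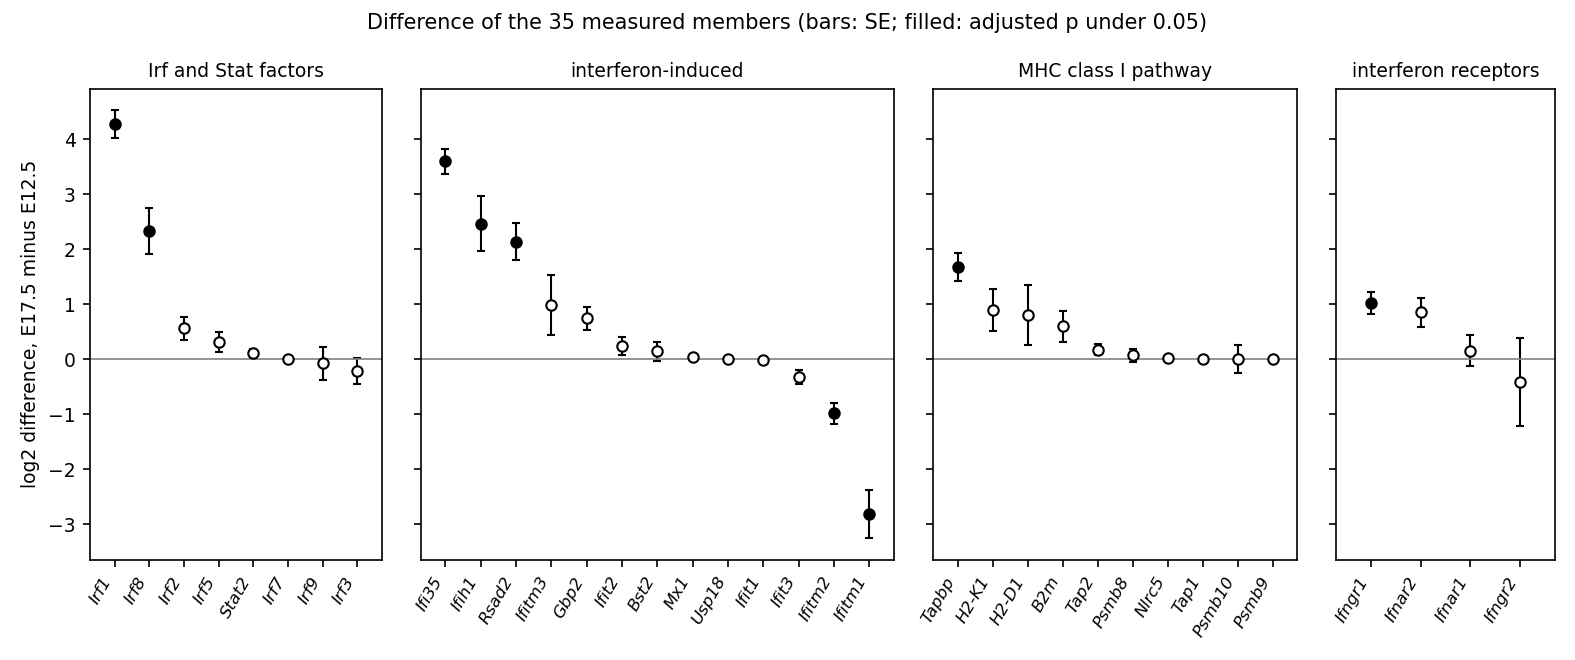
Log2 difference, E17.5 minus E12.5, of the 35 measured members in 4 role groups, each with its limma SE and filled where the adjusted p was under 0.05. Of the Irf and Stat factors 2 are filled, of the interferon-induced genes 3 above and 2 below zero, of the MHC class I pathway genes 1 (Tapbp) and of the receptor chains 1 (Ifngr1).

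In the MHC class I pathway only Tapbp was called, and 5 of the 10 measured genes were under 4 on all arrays of both ages. Of all genes 8.21% were called higher and 39.3% were under 4 on all arrays. Tapbp encodes tapasin, which bridges the TAP transporter and the class I molecule. It had 7.98, 8.42 and 8.66 at E17.5, against 6.62, 7.01 and 6.40 at E12.5. The ages were clearly apart, and the difference was 1.68 (SE 0.25, adjusted p = 0.00566), or 3.2-fold. A second Tapbp probe set was at 1.51 or 1.52 on all arrays.

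B2m, the light chain of every class I molecule, had 8.89, 8.98 and 9.70 at E17.5, against 8.75, 8.85 and 8.17 at E12.5. All E17.5 arrays were above all E12.5 arrays, by little for replicates A and B and by more for C. The difference of 0.60 was not called (SE 0.28, adjusted p = 0.223). The second B2m probe set was also not called (adjusted p = 0.5 over all probe sets).

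Nlrc5, the transactivator of class I genes, the peptide transporter genes Tap1 and Tap2, and the immunoproteasome genes Psmb8 and Psmb9 were under 4 on all arrays, with a highest value of 3.51. Psmb9, Tap1, Psmb8 and Tap2 are neighbours in the MHC region of chromosome 17. The 4 Tap1 probe sets had a highest value of 2.74. None of these 5 genes differed by more than 0.17, and none was called.

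The third immunoproteasome gene, Psmb10, was above that range, with 6.29, 6.33 and 6.94 at E17.5, against 6.68, 6.48 and 6.40 at E12.5. Its means were equal (difference 0.00, SE 0.26). The constitutive catalytic subunits that these genes replace on induction, Psmb5, Psmb6 and Psmb7, were between 11.44 and 12.91 at E17.5 and between 11.70 and 12.85 at E12.5, and none was called. Of 14 constitutive core proteasome genes 1 fell and none rose, against 8.73% and 8.21% of all genes. The gene that fell was Psma7, by 0.75 (adjusted p = 0.00716). The other 13 were not called, and the median difference of the 14 was -0.22. All 14 were at 10.04 or above on every array.

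**Figure D3:**
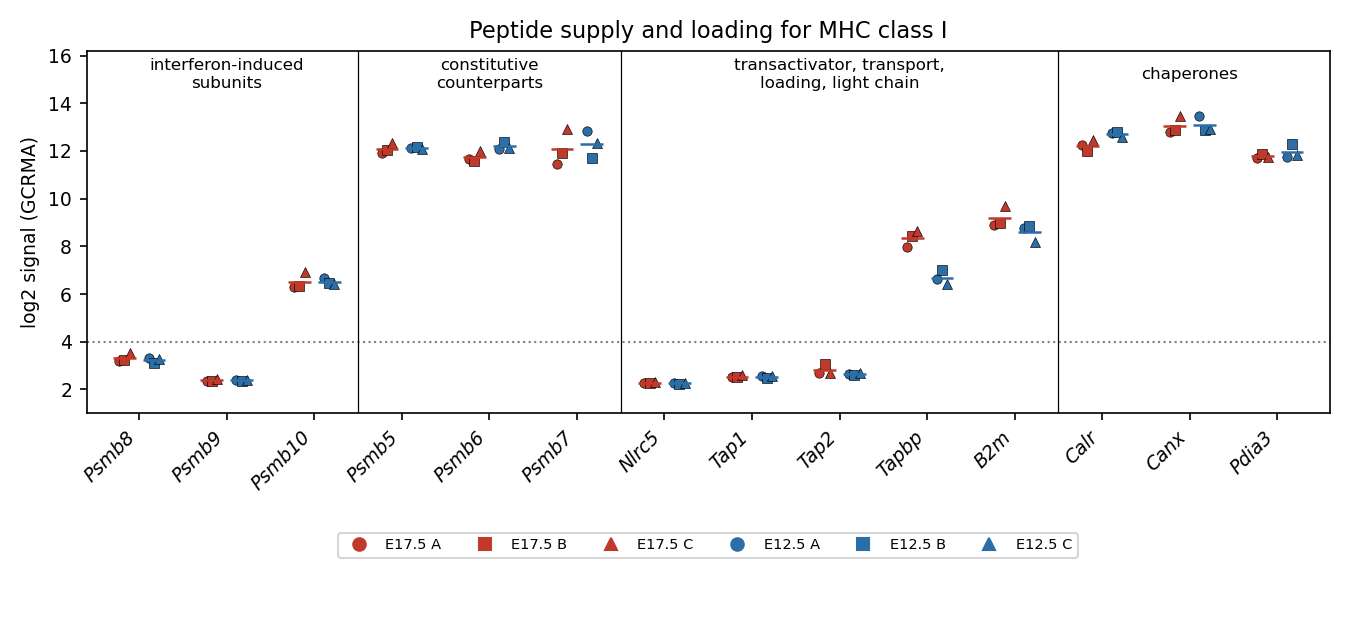
Log2 signal on each array of the interferon-induced proteasome subunit genes, their constitutive counterparts, class I transport and loading genes and general chaperones, with E17.5 in red to the left and E12.5 in blue to the right, lines for means of 3 arrays and a dotted line at 4. Psmb8, Psmb9, Nlrc5, Tap1 and Tap2 lie under 4 at both ages, and Tapbp is the gene whose ages are most clearly apart, at 7.98 to 8.66 against 6.40 to 7.01.

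The classical heavy chain genes H2-D1 and H2-K1 could be read only on probe sets with weak signal, and C57BL/6 and DBA2 mice carry different H2 haplotypes. The haplotypes of the embryos are not given in the sources used here. H2-D1, read on an _x_at set, had 4.38, 4.83 and 2.80 at E17.5, against 2.65, 3.72 and 3.22 at E12.5. E17.5 replicate C lay below the other E17.5 arrays and within the E12.5 range, and the difference of 0.81 was not called (SE 0.54, adjusted p = 0.438). Without E17.5 replicate C it was 1.41 (adjusted p = 0.0435), but E17.5 then rests on replicates A and B, which may not be independent. In the averaged fit the difference was 0.51 (adjusted p = 0.722).

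H2-K1, also on an _x_at set, had 3.76, 3.92 and 5.21 at E17.5, against 3.26, 3.58 and 3.35 at E12.5. Here replicate C was the highest E17.5 array, the reverse of H2-D1. The difference of 0.90 was not called (SE 0.38, adjusted p = 0.178). Of the 13 probe sets that name 1 of these 2 genes 11 were under 4 on all arrays, none reached 6 and none was called over all probe sets. Of the 10 measured class I pathway members 1 rose and none fell, against 8.21% and 8.73% of all genes, with a median difference of 0.12.

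The receptor chains were all above the low range on at least 1 array. Ifngr1, the ligand-binding chain for interferon gamma, had 7.96, 8.04 and 7.93 at E17.5, against 7.31, 6.72 and 6.82 at E12.5. The difference was 1.03 (SE 0.21, adjusted p = 0.017), or 2.04-fold. It was not called in the averaged fit (adjusted p = 0.0771), nor without E12.5 replicate C, E17.5 replicate A or E17.5 replicate B (adjusted p = 0.0614, 0.0736 and 0.0853).

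Ifngr2, the second chain of that receptor, had 5.12, 5.23 and 3.83 at E17.5, against 3.34, 5.87 and 6.20 at E12.5. Its arrays were scattered within both ages and the difference was -0.41 (SE 0.80, adjusted p = 0.868). For the type I receptor, Ifnar1 had 8.52, 8.43 and 7.95 at E17.5, against 7.60, 8.48 and 8.35 at E12.5, and differed by 0.16 (SE 0.28, adjusted p = 0.854). A second Ifnar1 probe set went the other way, by -0.44, and was not called (adjusted p = 0.8 over all probe sets). Ifnar2 had 7.84, 7.84 and 8.46 at E17.5, against 6.82, 7.51 and 7.25 at E12.5. Its ages did not overlap, and the difference of 0.85 was not called (SE 0.26, adjusted p = 0.0764), nor was that of its other probe sets (adjusted p = 0.855 and 0.517 over all probe sets).

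Around the listed genes, the Jak-Stat relay and its brakes differed most at Socs3, while Socs1 stayed in the low range. Of 13 measured genes of the Jak-Stat relay and its brakes 3 rose and none fell, against 8.21% and 8.73% of all genes. Socs3, which inhibits receptors that signal through gp130, had 13.08, 13.22 and 12.93 at E17.5, against 8.55, 8.19 and 8.94 at E12.5, on an _x_at set. The difference was 4.52 (SE 0.20, adjusted p = 6.92e-05). Stat3, the main STAT of that receptor family, had 8.72, 8.63 and 9.78 at E17.5, against 5.98, 6.30 and 6.63 at E12.5, a difference of 2.74 (SE 0.35, adjusted p = 0.00283). Il10rb, a receptor chain shared by interleukin-10 and interferon lambda, rose by 1.30 (adjusted p = 0.0263; 0.0873 in the averaged fit).

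Socs1, which restrains interferon and other cytokine signals, and the interferon lambda receptor gene Ifnlr1 were under 4 on all arrays. The kinase genes Jak1, Jak2 and Tyk2 were not called, at 0.28, -0.26 and -0.29. The 5 measured interferon ligand genes, among them Ifna5 and Ifng, lay between 2.02 and 2.68 on all arrays. None was called, against 16.9% of all genes in either direction.

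Of 13 nucleic acid sensors and adaptors 3 rose and none fell, against 8.21% and 8.73% of all genes. Mb21d1 (also Cgas), the cytosolic DNA sensor, had 7.01, 7.01 and 7.49 at E17.5, against 5.20, 5.34 and 5.33 at E12.5. The difference was 1.88 (SE 0.23, adjusted p = 0.00257). Its adaptor Tmem173 (also Sting1) was not called (-0.54, adjusted p = 0.557). Trim25, a ubiquitin ligase that activates the RNA sensor RIG-I, rose by 1.98 on an _s_at set (adjusted p = 0.0186). The Toll-like receptor adaptor gene Myd88 rose by 0.69 (adjusted p = 0.034; 0.0507 in the averaged fit), and with the floor at 4 that difference was 0.28 and the call was lost (adjusted p = 0.192).

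In a longer list of interferon-induced genes the calls were all upward and most genes were in the low range. Of 46 measured genes 9 rose and none fell, against 8.21% and 8.73% of all genes. The other 37 were not called, and 26 of the 46 genes were under 4 on all arrays, against 39.3% of all genes. The median difference was 0.05. Ifi27, a mitochondrial and nuclear envelope protein gene, had 10.06, 10.05 and 10.54 at E17.5, against 5.39, 5.35 and 5.92 at E12.5, on an _s_at set. It rose by 4.66 (SE 0.23, adjusted p = 9.27e-05).

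Xaf1, an antagonist of the apoptosis inhibitor XIAP, had 7.18, 7.85 and 6.64 at E17.5, against 3.56, 2.69 and 3.97 at E12.5. It rose by 3.82 (SE 0.45, adjusted p = 0.00194). Parp12, an ADP-ribosyltransferase gene, had 8.55, 8.56 and 8.21 at E17.5, against 5.40, 5.90 and 5.36 at E12.5. It rose by 2.89 (SE 0.23, adjusted p = 0.000449).

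The other 6 that rose were the GTPase genes Gbp7 (2.61), Irgm1 (1.85) and Gbp3 (0.84), the ubiquitin ligase gene Herc6 (1.99), the nucleotide kinase gene Cmpk2 (1.57) and the chemokine gene Cxcl10 (1.43). All 9 were also called in the averaged fit. With the floor at 4 the difference of Irgm1 was 0.30 and its call was lost (adjusted p = 0.203), while that of Gbp3 was 0.43 and that of Cxcl10 was 1.11, both still called. The Oas genes measured (Oas1a, Oas2, Oas3, Oasl1 and Oasl2), Mx2, Zbp1 and Ifi47 were under 4 on all arrays. Cmpk2 is the chromosomal neighbour of Rsad2, and both rose.

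**Figure D4:**
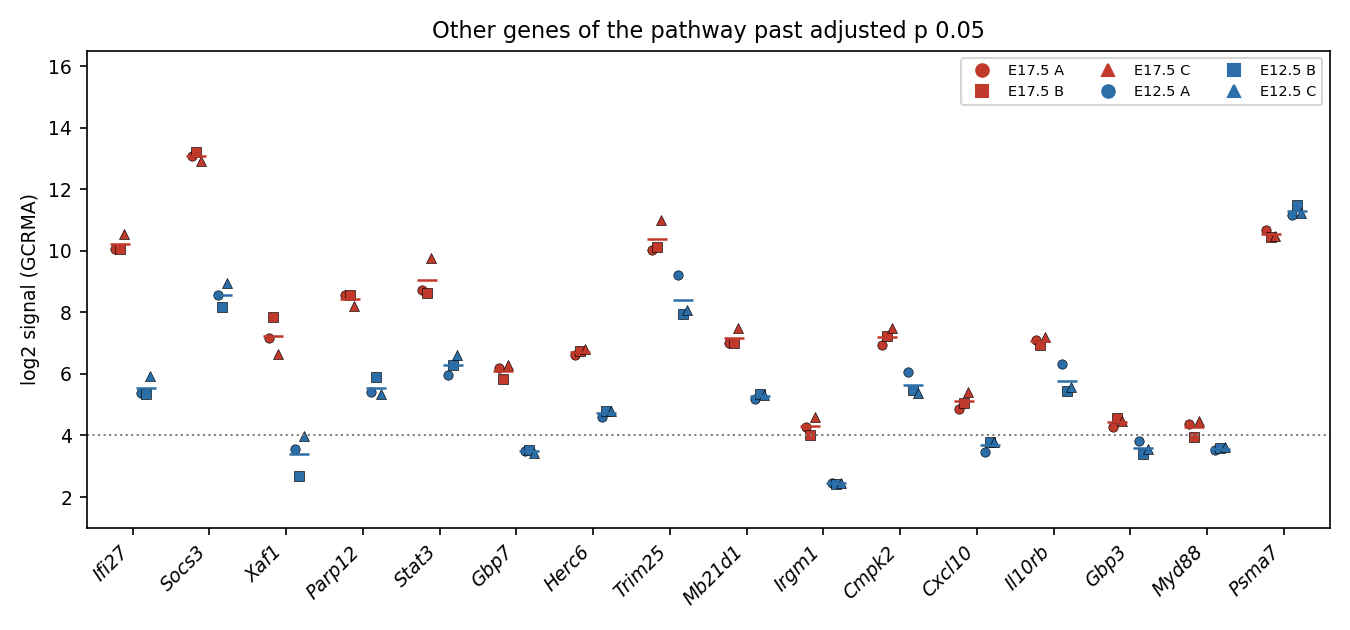
Log2 signal on each array of the 16 called genes from 7 further lists of the pathway, with E17.5 in red to the left and E12.5 in blue to the right, lines for means of 3 arrays and a dotted line at 4. The ages do not overlap for any of them, and they were chosen by their call on these same arrays. At E17.5 15 were higher and Psma7 was lower.

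Outside the listed members, no peptide loading or class II gene was called. Of 16 other class I loading and peptide supply genes none was called, against 16.9% of all genes in either direction. The brightest were the chaperone genes Canx and Calr, which differed by -0.04 (adjusted p = 0.95) and by -0.48 (adjusted p = 0.0537). Of 10 MHC class II genes none was called, against the same 16.9%. Under 4 on all arrays were 8 of them, Cd74 and the transactivator gene Ciita included, against 39.3% of all genes. The brightest of the 10 were the lysosomal protease gene Ctss, at 4.87 to 5.15 at E17.5 and 3.98 to 6.19 at E12.5, and H2-DMa.

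**Figure D5:**
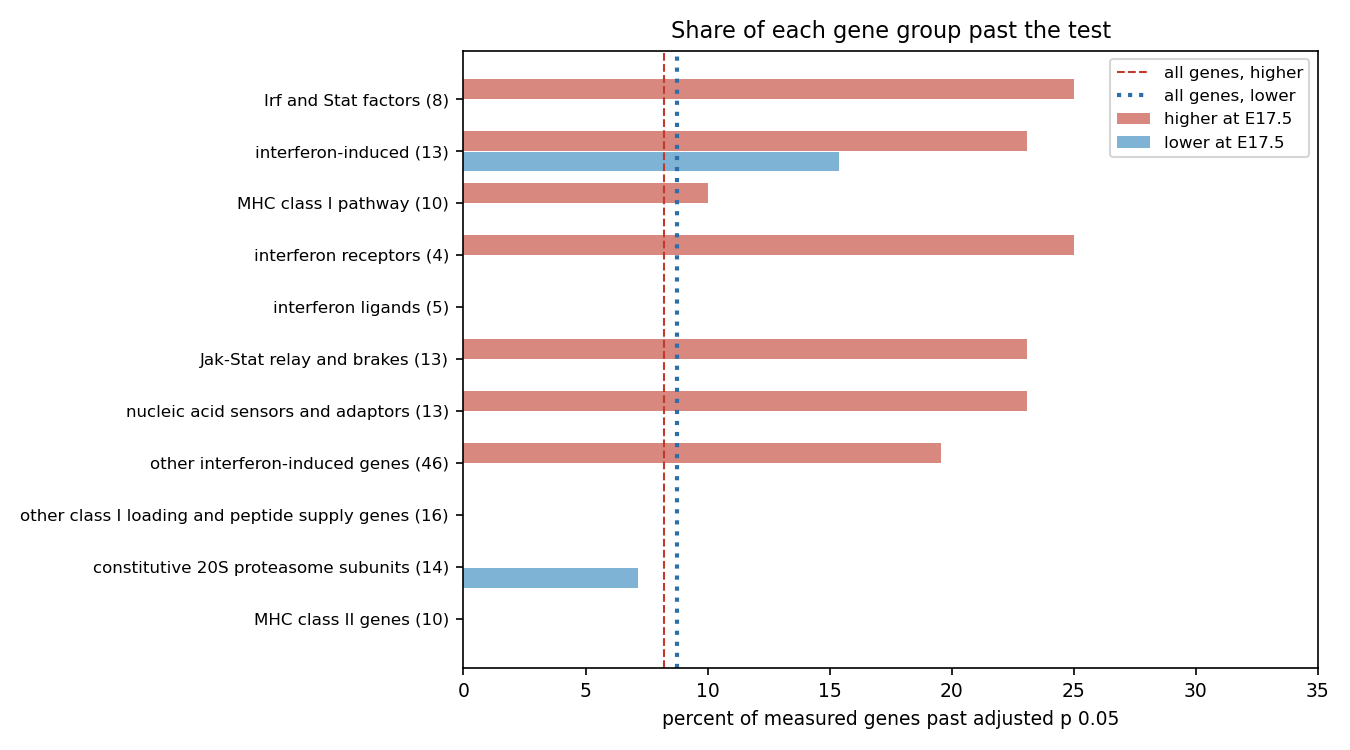
Percent of the measured genes of each group called higher (red bars) or lower (blue bars) at E17.5, with the number measured in brackets and the shares of all genes, 8.21% higher and 8.73% lower, as dashed and dotted lines. The top 4 groups are the listed members and the other 7 are the further lists of the pathway. The receptor group has 4 genes, of which 1 was called.

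Immune cells express much of this list strongly, so their markers were read on the same arrays. Of 17 macrophage markers 10 were under 4 on all arrays, including the pan-leukocyte gene Ptprc and Cd14, C1qa, C1qc, Fcer1g, Tyrobp, Aif1 and Itgam. Cd68, a lysosomal protein gene, and the lysozyme gene Lyz2 rose, by 2.99 (adjusted p = 0.00281) and 1.06 (adjusted p = 0.0409; 0.108 in the averaged fit). Laptm5 fell by 1.77 (adjusted p = 0.0216; 0.0504 in the averaged fit). The summed linear signal of the 17 genes was between 323 and 395 at E17.5 and between 336 and 717 at E12.5, with the maximum in E12.5 replicate B. Without Laptm5, the brightest of them, it was between 257 and 286 at E17.5 and between 147 and 281 at E12.5. All 8 measured T, B and NK cell markers were under 4 on all arrays. In bulk arrays, fewer cells of a type and less RNA per cell cannot be told apart.

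Marker sums of other cell types differed with age in both directions, and some of them rested on 1 gene. The summed linear signal was between 1384 and 1580 at E17.5 and between 316 and 742 at E12.5 for 11 endothelial markers, where Tek rose by 4.88 and Erg fell by 2.96 while Pecam1 and Tie1 were under 4. Tek carried that sum: without it the range was 293 to 301 at E17.5 and 280 to 682 at E12.5, and the median difference of the 11 genes was -0.35. For 11 fibroblast and tendon markers the sum was between 26225 and 33800 at E17.5 and between 10860 and 29177 at E12.5. Of these markers 3 rose and 2 fell (1 and 1 in the averaged fit). Without Col3a1 the sums also overlapped, at 12637 to 16482 at E17.5 and 7533 to 15590 at E12.5. The 6 cartilage markers, of which 1 fell, summed to between 296 and 989 at E17.5 and to between 3468 and 6105 at E12.5. Without Col9a1 the ranges were 251 to 470 at E17.5 and 514 to 1653 at E12.5. The 5 Schwann cell and neuron markers, of which 1 fell (0 in the averaged fit), summed to between 31.0 and 34.8 at E17.5 and to between 48.4 and 74.8 at E12.5. Without Elavl4 the sums overlapped, at 22.7 to 25.4 at E17.5 and 23.5 to 39.6 at E12.5. Of these 5 markers 3 were under 4 on all arrays. Of the 8 myogenic markers 2 rose (Pax7 and Myog) and 1 fell (Pax3). The part of these cell types in the differences of the interferon and antigen presentation genes was not tested.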

How the data were processed

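Each of 6 arrays measured RNA from sorted Pax7-nGFP+ cells. The authors deposited log2 values, made with GCRMA per the submitters' processing notes; no version of it is given in the sources used here. This method corrects background from probe sequence and compresses unexpressed probe sets into a low range, here mostly under 4. The annotation gave 1 symbol to 34909 of 44994 probe sets. The 931 with several symbols and the 9154 unnamed here were not used for genes. Symbols were updated by entrez ID to RefSeq GRCm38.p6.

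The ages were compared by lmFit and eBayes with an intensity trend (limma 3.58.1, R 4.3.3) over all 18182 genes, with no filter. The fit was tested on simulated data: in 20 runs with 200 changed genes among 18182, 61.1% of 2-fold and 86.7% of 4-fold changes of E17.5 against E12.5 were recovered, and 4.36% of calls fell on unchanged genes. These shares assume 6 independent arrays. The changed genes were drawn from all 18182, of which 39.3% were under 4 on all arrays, and were fewer than the 3080 genes called in the data. The shares therefore do not describe the members alone.

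The members, the 7 further pathway lists (133 entries, 117 measured, 2 through an older symbol) and the 8 marker lists (80 entries, 74 measured) were chosen with earlier results of these data known. Members that were called or had a mean of at least 8 were given in every array, as were others that a comment rests on. Of each further list the 3 largest rises and falls, or the 2 brightest genes, were named, and further genes to complete a count, chosen after their values were seen. The labels call the replicates biological but name no litter, so p-values measure the spread between these arrays. Alternatives tried were array weights, variance priors without the trend or robust, probe set choices, filters, a floor, normalizations, a replicate block, averaging of E17.5 A and B, stricter thresholds and leaving out each array. The fit of all probe sets was added after seeing the data. Promoter letters come from RefSeq (GRCm38.p6).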

Additional observations from a re-analysis of the deposited data

How the results depend on the processing

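Irf1, Irf8, Ifi35, Rsad2 and Tapbp kept their direction and their call in every fit in which they had a value at the 0.05 threshold, and no called member changed direction in any fit. The call of Ifitm1 also held in each of these fits. The main counts were 7 members higher and 2 lower, and 1493 and 1587 genes. Averaging replicates A and B of E17.5 left 825 genes lower, 1 member lower (1 interferon-induced gene) and 0 receptors higher. A threshold of 0.01 left 841 genes higher and 701 lower, with 4 members higher, 1 of them an Irf, and 1 member lower, an interferon-induced gene, and 0 receptors higher. A further limit of a difference of at least 1 left 924 genes and 1 member lower, an interferon-induced gene. Array weights, with E17.5 A at 4.97, E12.5 C at 4.80, E17.5 B at 3.24 and the other arrays at 0.386 or less, called 3205 genes higher and 5218 lower. They called 14 members higher (4 Irf and Stat factors, 4 class I pathway genes and 2 receptors among them) and 5 lower (4 interferon-induced and 1 class I pathway gene). So weighted, the E17.5 values rest mostly on replicates A and B, which may not be independent, and the E12.5 values mostly on replicate C.

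With genes limited to a mean of 4 or more, to a mean of 6 or more, and with the floor at 4, 2 receptors were called higher, since Ifnar2 passed (adjusted p = 0.0383, 0.0367 and 0.0497). At the limit of 6, 1 Irf was called higher and 1 member lower, an interferon-induced gene, since Irf8 and Ifitm1 were not tested there. Among probe sets without a suffix 1 Irf was called higher, since Irf1 has no such set. Members constant at the floor have no value in that fit. With the replicate letter as a replicate block 1014 genes and 1 member were lower (1 interferon-induced gene) and 0 receptors were higher. The letters did not pair the arrays, with correlations of same-letter deviations of -0.38, 0.25 and -0.07 for A, B and C. Without 1 array the ranges were 969 to 1553 genes higher, 770 to 1776 lower, 5 to 8 members higher, 1 to 3 lower, 2 to 4 and 1 to 3 interferon-induced genes higher and lower, 1 to 2 class I pathway genes higher and 0 to 1 receptors higher. Without E17.5 replicate B 969 genes were higher and 770 lower. The count of lower genes was 836 when E17.5 replicate A was left out and 1052 when E12.5 replicate C was. Lower members numbered 1 without E17.5 replicate A or E17.5 replicate B, and 3 without E12.5 replicate C, where Ifit3 passed. Median differences depended on low genes. A limit to genes with a mean of 4 or more favours genes high at one age. Under it the medians were 1.13 for the Irf and Stat factors, 0.99 for interferon-induced genes and 0.60 for class I pathway genes. At the limit of 6 that of the factors was 2.03, where only Irf1 (4.27) and Irf3 (-0.21) were left. Over all measured members the medians were 0.21, 0.14 and 0.12. With the floor at 4 they were 0.175, 0.62 and 0.40, and array weights gave 0.000231 for interferon-induced genes. Signal over background limits 12 members, which were under 4 on all arrays.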
